A study of Arabidopsis thaliana with 12 samples.

Results

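The interaction of the sdg8 and hub2 mutations was examined as the departure of the double mutant from the sum of both single-mutant effects. On log2 array signal, both single mutants were subtracted from sdg8hub2 and wild type was added back, a contrast that takes in all 12 of the 12 arrays, 3 from each of 4 groups of Arabidopsis thaliana seedlings. The groups were the double mutant sdg8hub2, the single mutants sdg8 and hub2, and wild type, all of ecotype Columbia. The sources used here do not give the mutant alleles, so each group is known by its genotype name alone. Whole seedlings of all groups were harvested at 6 days after growth at 22 °C under 16 h of light and 8 h of dark, and the 3 replicates of a group were grown independently.

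SDG8 encodes a histone methyltransferase that methylates lysine 36 of histone H3, and HUB2 encodes a subunit of the E3 ligase that attaches single ubiquitin units to histone H2B. Both marks are laid down over the bodies of transcribed genes. If the mutations act independently on a log scale, the fold changes of both single mutants multiply in the double mutant, and the contrast is 0. Synergy here means that the double mutant was changed against wild type and the departure had the direction of that change. The expectation may then lie on the other side of wild type. A departure that brings the double mutant back towards wild type is called buffering. Sign reversal means that a mutation raised a transcript in 1 background and lowered it in the other.

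RNA was hybridised to Affymetrix 3′ expression arrays, which read a gene through 1 or more probe sets, and values per array are given below as the deposited intensities. The authors had scaled the arrays to a common trimmed mean, and the median intensity per array lay between 137 and 155. Pairs of arrays of the same group correlated at 0.939 to 0.965 over log2 values, and pairs from different groups at 0.927 to 0.960, so the groups were not far apart as a whole. The actin 3′ minus 5′ probe set difference, a sign of RNA integrity, was 2.06 on hub2 replicate 2 and 1.00 to 1.53 on the other arrays (log2). The leaf marker RCA, which encodes Rubisco activase, had group means of 23703 to 29187, and the root markers GH9C1 and EXPA18 of 147 to 399, while no flower or seed storage marker was measured under a name. Probe sets of SDG8 and HUB2 are unnamed here, so the targeted genes were not checked. In whole seedlings, fewer cells of a type and less RNA per cell cannot be told apart.

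Departures from additivity were common and ran in both directions. Of 18196 probe sets tested, 1175 departed from the additive expectation, which is 6.46% (limma, two-sided, Benjamini-Hochberg adjusted p under 0.05). A positive departure, with more signal in sdg8hub2 than the single mutants add up to, was called for 555 probe sets (3.05%), and a negative one for 620 (3.41%). Positive departures made up 47.2% of the calls (exact 95% binomial interval 44.3% to 50.1%, counting error only). The median size among called probe sets was 0.78 log2 units, and the smallest called departure was 0.36, against a median standard error of 0.25 over all probe sets tested. Departures of at least 1 log2 unit, a 2-fold difference between observed and expected signal, were called for 343 probe sets (1.89%), 186 of them positive (1.02%) and 157 negative (0.863%), and 66 were at least 2 log2 units. Exactly 1 gene symbol is attached to 556 of the called probe sets, and the genes below come from these.

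**Figure D1:**
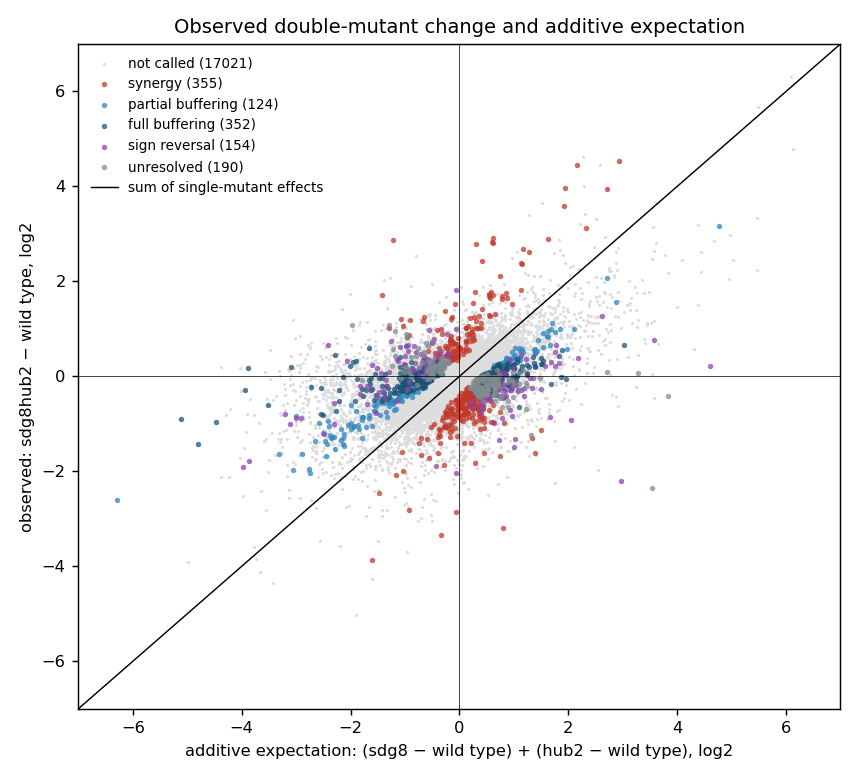
Observed log2 change of sdg8hub2 against wild type (vertical axis) plotted against the additive expectation, the sum of the sdg8 and hub2 changes (horizontal axis, log2), for all 18196 probe sets tested. The diagonal marks additivity, and the 1175 called probe sets are coloured by class, with synergy far from 0 on the vertical axis, full buffering along the horizontal line at 0 and sign reversal on both sides of that line.

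Each called probe set was put in a class from the signs and calls of the single-mutant and double-mutant effects. Synergy held 355 probe sets (30.2% of the calls), full buffering 352 (30.0%), sign reversal 154 (13.1%), partial buffering 124 (10.6%), and 190 (16.2%) were unresolved, since no mutant was called against wild type. The calls against wild type that enter the classes were made for 18.5% of probe sets in sdg8hub2, 14.3% in sdg8 and 2.85% in hub2, and sdg8hub2 was called against sdg8 for 14.4% and against hub2 for 17.0%. Most of the synergy came from probe sets with a call in neither single mutant, 289 in all, of which 99 were higher and 190 lower in sdg8hub2 than in wild type. A further 54 synergistic probe sets had a call in 1 single mutant (sdg8 for 49 and hub2 for 5) and 12 had a call in both. Of the 352 full buffering probe sets, 287 had a call in sdg8 alone, 165 of these lowered and 122 raised there. Another 51 had a call in hub2 alone and 14 in both. The class requires a called single mutant, and sdg8 had 2598 calls over all probe sets tested, against 519 in hub2. The split between the mutants is therefore not read as a trait of buffering. Partial buffering was more often a muted fall (81) than a muted rise (43). The sdg8 effect was called in 120 of the 124, the hub2 effect in 55 and both in 51. In sign reversal the effect of sdg8 turned with the HUB2 background for 81 probe sets, the effect of hub2 turned with the SDG8 background for 44, and both turned for 29. This class requires an effect called in both backgrounds. Over all probe sets the sdg8 effect was called for 14.3% and 17.0%, and the hub2 effect for 2.85% and 14.4%. The splits between the mutants in partial buffering and sign reversal are therefore not read as traits of these classes either. Some class counts moved with single arrays. Without wild type replicate 1 there were 71 partial buffering, 218 full buffering and 90 sign reversal calls. Full buffering numbered 223 without wild type replicate 2, 228 without wild type replicate 3 and 230 without sdg8 replicate 2, and partial buffering 78 without sdg8hub2 replicate 3.

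**Figure D2:**
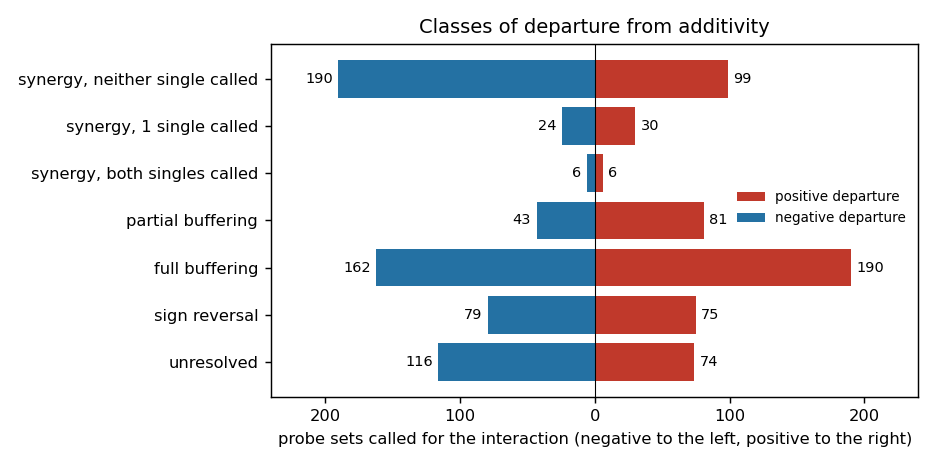
Number of called probe sets in each class of departure from additivity, with negative departures to the left of 0 and positive ones to the right. Synergy without a call in either single mutant leans to the negative side (190 against 99), and partial buffering to the positive side (81 against 43).

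The typical probe set of each class shows how the classes differ in level. Among the 99 positive synergies without a single-mutant call, the median change against wild type was 0.71 log2 units in sdg8hub2, against an additive expectation of -0.12. Among the 190 negative ones, it was -0.63 in sdg8hub2 against an expectation of 0.16. In full buffering with a positive departure, the median sdg8hub2 change was -0.06 against an expectation of -0.85, with separate medians of -0.67 for sdg8 and -0.20 for hub2. In sign reversal with a positive departure, the median sdg8hub2 change was 0.24 against an expectation of -0.95. These medians describe probe sets that were sorted on the same values, and carry no test.

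QQS had the highest departure among the genes the naming rule selected. It encodes an orphan protein of Arabidopsis that affects how carbon is divided between starch and protein. Its intensity was 1101, 1396 and 1175 in sdg8hub2, against 148, 77.7 and 125 in sdg8, 66.2, 141 and 130 in hub2, with 190, 165 and 150 in wild type. All 3 double-mutant arrays lay far above the other 9, while neither single mutant had a call. The departure was 4.09 log2 units (SE 0.35, limma adjusted p = 1.74e-07), a signal 17.0 times the additive expectation of 71.7 intensity units.

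BZIP60, the transcription factor gene of the unfolded protein response of the endoplasmic reticulum, showed the same form of synergy at a higher level. Its intensity was 2059, 2322 and 1945 in sdg8hub2, against 803, 792 and 818 in sdg8, 901, 974 and 924 in hub2, with 825, 969 and 957 in wild type. The 3 double-mutant arrays were above all the others, and the single mutants and wild type lay close together. The departure was 1.36 (SE 0.14, limma adjusted p = 1.97e-06), which is 2.56 times the expected signal. AT5G55620 rose in the same manner, with 2365, 2358 and 2508 in sdg8hub2 against an expectation of 772 and a departure of 1.64 (SE 0.17). AT1G09310 (departure 0.89) and XTH32, which encodes a xyloglucan endotransglucosylase of the cell wall (0.73), were also higher in sdg8hub2 alone, with all 3 double-mutant arrays above the other 9.

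Further positive synergies without a single-mutant call were found at lower signal. AT2G04070, a gene of the MATE family of efflux transporters, read 357, 305 and 359 in sdg8hub2, against 69.0, 61.7 and 52.4 in sdg8, 57.2, 52.6 and 61.2 in hub2, with 50.5, 57.1 and 37.5 in wild type. The double mutant stood clear of the other groups, which overlapped, and the departure was 2.23 (SE 0.37, limma adjusted p = 0.000569). AT5G60250 departed by 2.49 (SE 0.56) and AT3G28500, an acidic ribosomal protein gene, by 2.29 (SE 0.51). For both, the means of the other 3 groups lay at low signal, and on the log2(intensity + 64) scale their departures were 1.52 and 1.54.

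On the negative side, GAT1_2.1, which encodes a glutamine amidotransferase-like protein, departed furthest among the named genes. Its intensity was 9.89, 74.3 and 24.7 in sdg8hub2, against 313, 271 and 293 in sdg8, 391, 315 and 344 in hub2, with 245, 217 and 262 in wild type. The double-mutant arrays were all below the other 9 but spread widely among themselves. The departure was -4.01 (SE 0.57, limma adjusted p = 0.000114), or 16.1 times less than expected, and -2.32 on the log2(intensity + 64) scale. The gene's other probe set, near the background, had a departure of -0.49 that was not called (limma adjusted p = 0.864).

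The neighbouring genes AT1G36390, which encodes a co-chaperone of the GrpE family, and AT1G36380 were both synergistically low. AT1G36390 read 69.4, 61.8 and 55.5 in sdg8hub2, against 406, 358 and 344 in sdg8, 469, 682 and 466 in hub2, with 457, 417 and 483 in wild type. The single mutants were not called against wild type, and the double mutant lay below every other array. Its departure was -2.80 (SE 0.23, limma adjusted p = 1.05e-07), 6.98 times below expectation. AT1G36380 departed by -1.89 (SE 0.24), with an sdg8 effect of -0.88 that was called on its own.

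IVD and MCCA, genes of leucine breakdown, were low in sdg8hub2 without a call in either single mutant. IVD encodes isovaleryl-CoA dehydrogenase and MCCA a subunit of methylcrotonyl-CoA carboxylase, which act in turn in the mitochondrion. IVD read 767, 762 and 697 in sdg8hub2, against 1388, 1172 and 1385 in sdg8, 1465, 1574 and 1656 in hub2, with 1374, 1260 and 1417 in wild type. MCCA read 959, 978 and 892 in sdg8hub2, against 1602, 1673 and 1674 in sdg8, 1784, 1598 and 1748 in hub2, with 1485, 1485 and 1536 in wild type. For both genes all 3 double-mutant arrays were below the other 9. The departures were -1.04 (SE 0.14, limma adjusted p = 5.70e-05) and -0.99 (SE 0.12, limma adjusted p = 1.94e-05), so both transcripts were about 2.05 and 1.99 times below the expectation. MCCB, which encodes the partner subunit of MCCA, departed by -0.60 (SE 0.18) and was not called (limma adjusted p = 0.0518). AT1G60590, a gene of the pectin lyase-like family, departed by -1.62 (SE 0.17) in the same pattern. AT1G50140 departed by -2.06 (SE 0.35) on 1 probe set, and its other probe set, at low signal, had a departure of -1.29 that was not called.

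**Figure D3:**
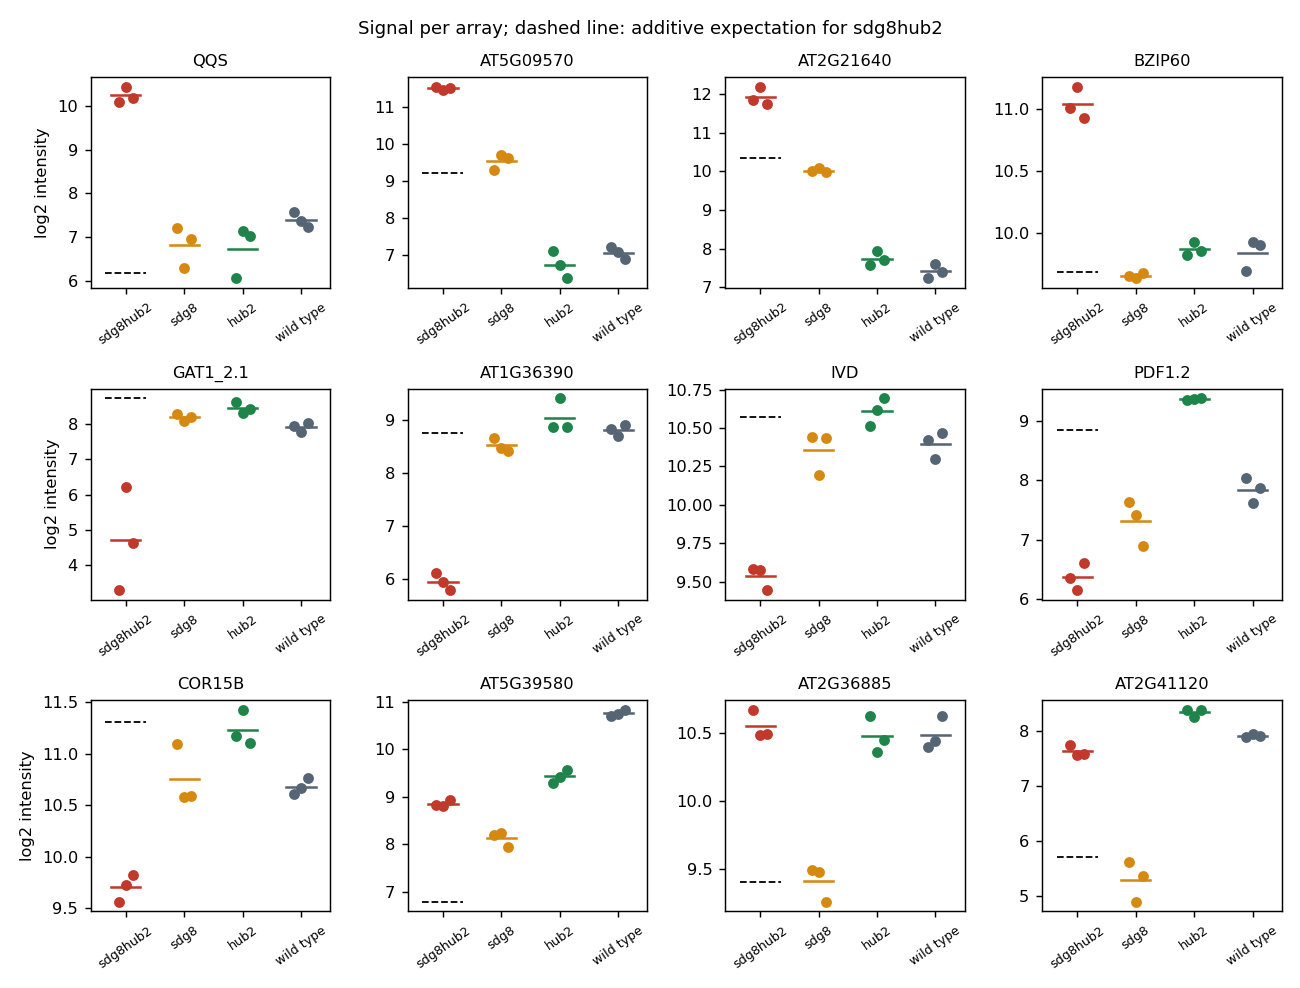
log2 intensity of each array for 12 genes, with sdg8hub2, sdg8, hub2 and wild type from left to right, a short line at each group mean and a dashed line at the additive expectation for sdg8hub2. The first 7 panels show synergy (QQS to IVD), PDF1.2, COR15B and AT5G39580 show sign reversal, and AT2G36885 and AT2G41120 show full buffering, where sdg8hub2 lies near wild type.

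Markers of mitochondrial dysfunction, nuclear genes known to be induced when mitochondria are disturbed, departed positively as a group. Of 20 genes on the list 12 were measured, 7 were called positive and none negative, and the median departure was 1.25, beside 271 positive and 285 negative calls among 10119 genes and a median of 0.01 over all of them. All 12 members had a positive departure, from 0.08 to 2.29. The list's rise in the mutants was known when it was chosen, so its count is a description. Over the processing alternatives the number called positive ranged from 6 to 10.

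AT5G09570, which encodes a small mitochondrial protein, read 2979, 2825 and 2891 in sdg8hub2, against 624, 822 and 788 in sdg8, 136, 106 and 81.8 in hub2, with 146, 134 and 118 in wild type. The sdg8 arrays were already high, hub2 overlapped wild type, and sdg8hub2 was higher again. The departure was 2.29 (SE 0.23, limma adjusted p = 1.19e-06), 4.90 times the expected 591 units. AT2G21640, whose mitochondrial product is induced under oxidative stress, read 3718, 4692 and 3470 in sdg8hub2, against 1024, 1086 and 1010 in sdg8, 191, 243 and 208 in hub2, with 150, 196 and 169 in wild type. Its departure was 1.59 (SE 0.19, limma adjusted p = 9.69e-06), and the hub2 mutation, with an effect of 0.32 in the wild-type background that was not called, had an effect of 1.92 in the sdg8 background. AT2G04050, a further MATE transporter gene, departed by 1.66 (SE 0.23), AT2G32020, an acetyltransferase family gene, by 1.27 (SE 0.26), and AT5G43450, a dioxygenase family gene, by 0.69 (SE 0.15), each with a call in sdg8 and not in hub2.

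AT2G41730 was called in both single mutants and rose beyond their sum. It read 9213, 10572 and 8939 in sdg8hub2, against 2625, 3091 and 2671 in sdg8, 811, 1060 and 843 in hub2, with 610, 621 and 627 in wild type, on a probe set that may cross-hybridise. The 4 groups did not overlap, and the departure was 1.24 (SE 0.15, limma adjusted p = 1.13e-05).

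Not all markers departed from additivity. AT5G51440, which encodes a small heat shock protein of mitochondria, read 1032, 1239 and 1011 in sdg8hub2, against 422, 521 and 576 in sdg8, 128, 237 and 180 in hub2, with 105, 77.2 and 77.5 in wild type. Its double-mutant change of 3.67 log2 units lay close to the sum of 3.59, a departure of 0.08 with a 95% interval of -0.49 to 0.64 (limma adjusted p = 0.918). NDB4 and NDB2, which encode external NAD(P)H dehydrogenases of the mitochondrion, had departures of 0.23 (SE 0.75) and 0.19 (SE 0.21) that were not called. The 5 measured genes of the alternative NAD(P)H dehydrogenase and oxidase list were the dehydrogenase genes NDC1, NDB1, NDB2, NDB3 and NDB4. No alternative oxidase gene was measured under a name. None of the 5 was called in either direction, beside 3.05% of all probe sets called positive and 3.41% called negative. Their median departure was 0.19. For NDB4, whose wild-type mean was near the background, the departure was 1.52 on the log2(intensity + 64) scale.

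Outside that list, synergy on top of a called sdg8 effect included AT5G56350, a pyruvate kinase family gene, and PPDK, which encodes pyruvate orthophosphate dikinase. AT5G56350 read 3768, 3624 and 3453 in sdg8hub2, against 1608, 1698 and 1574 in sdg8, 1167, 987 and 1271 in hub2, with 1262, 1125 and 1355 in wild type. It departed by 1.28 (SE 0.14, limma adjusted p = 4.47e-06), with hub2 overlapping wild type. PPDK read 787, 706 and 780 in sdg8hub2, against 1151, 1101 and 1119 in sdg8, 1838, 2160 and 1733 in hub2, with 1625, 1494 and 1649 in wild type, and departed by -0.83 (SE 0.14, limma adjusted p = 0.000563). AT3G45730 (1.19) and AT3G16670 (-1.04) followed these forms. In 47 of the 54 probe sets with a call in 1 single mutant, that effect had the direction of the double-mutant change. COR27, a cold-regulated gene that also acts with the circadian clock, was among the rest: it rose in sdg8 (0.49), fell in sdg8hub2 (-0.52) and departed by -0.73 (SE 0.13, limma adjusted p = 0.00145). CDI rose in sdg8, fell in hub2 and rose in sdg8hub2, with a departure of 0.56 (SE 0.14), and AT1G30260 fell in hub2 and in sdg8hub2 but rose in sdg8, with a departure of -0.62 (SE 0.14). The call for CDI was lost without wild type replicate 1 or 2, without sdg8 replicate 2, with the actin difference as a covariate and without the variance trend.

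Partial buffering appeared where both single mutants moved a transcript and the double mutant went no further. AT4G12490, of the proline-rich lipid transfer family, read 1738, 1289 and 1455 in sdg8hub2, against 1566, 1838 and 1462 in sdg8, 2595, 2397 and 2509 in hub2, with 6082, 5858 and 5499 in wild type. The double mutant overlapped sdg8 and was far above the additive expectation of 695, a departure of 1.09 (SE 0.15, limma adjusted p = 6.10e-05). AT1G67865 read 2624, 3436 and 3120 in sdg8hub2, against 3195, 3361 and 2661 in sdg8, 3942, 3022 and 2895 in hub2, with 1366, 1653 and 1548 in wild type. All 3 mutants were raised to overlapping levels, and the departure from the expected 6556 was -1.11 (SE 0.17, limma adjusted p = 0.000285). PDF2.1, a plant defensin gene, and AT4G33550, of a lipid transfer protein family, were also raised in all 3 mutants, with departures of -0.81 (SE 0.14) and -1.02 (SE 0.16).

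Other partly buffered genes were moved mainly by sdg8. AT1G65500 read 354, 342 and 268 in sdg8hub2, against 173, 112 and 69.2 in sdg8, 326, 406 and 372 in hub2, with 595, 657 and 474 in wild type. The double mutant lay between sdg8 and wild type and overlapped hub2, with a departure of 2.17 (SE 0.32, limma adjusted p = 0.000166). AT1G23960 departed by 1.07 (SE 0.15). AT1G31690, a copper amine oxidase family gene, departed by -1.41 (SE 0.18), and its other probe set read 3.99 times below its expectation (limma adjusted p = 0.0541, not called). AT3G62220 had the second highest departure of the named genes, 3.68 (SE 0.61), but its sdg8 arrays read 5.07, 2.29 and 10.6, near the background, and with 64 added to each intensity before the log the departure was 1.02.

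In full buffering a single mutant was called against wild type and the double mutant was not. AT2G36885 read 1633, 1435 and 1443 in sdg8hub2, against 721, 713 and 614 in sdg8, 1582, 1316 and 1403 in hub2, with 1350, 1392 and 1580 in wild type. Only the sdg8 arrays were low, and the other groups overlapped. The departure was 1.15 (SE 0.15, limma adjusted p = 3.23e-05), with 2.22 times the signal that the single mutants add up to. AT2G41120 read 215, 190 and 193 in sdg8hub2, against 49.1, 29.8 and 40.9 in sdg8, 336, 305 and 335 in hub2, with 239, 247 and 242 in wild type. The double mutant lay below wild type and hub2 on every array and far above sdg8, with a departure of 1.92 (SE 0.27, limma adjusted p = 0.000100). On untransformed intensity, where hub2 and sdg8 effects add as differences, the departure of AT2G41120 was not called (limma adjusted p = 0.198).

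AT1G53030, which encodes a copper chaperone of cytochrome c oxidase, and AT2G17930 had the same form, with departures of 1.20 (SE 0.18) and 1.47 (SE 0.23). DFR, which encodes the dihydroflavonol reductase of anthocyanin synthesis, was the reverse case, high in sdg8 alone. It read 402, 438 and 405 in sdg8hub2, against 880, 1020 and 1249 in sdg8, 322, 295 and 305 in hub2, with 349, 396 and 408 in wild type, and it was 2.01 times below the expected 832 units (SE 0.18 log2 units, limma adjusted p = 0.00146). AT5G35740 (-0.85) and AT3G46490 (-1.18) were likewise raised by sdg8 and not by the double mutant.

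EXPA8, an expansin gene of cell wall loosening, was buffered against hub2. It read 554, 475 and 449 in sdg8hub2, against 605, 545 and 600 in sdg8, 894, 748 and 957 in hub2, with 505, 495 and 512 in wild type. The hub2 arrays were all above the other 9, and the departure was -1.02 (SE 0.17, limma adjusted p = 0.000501).

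**Figure D4:**
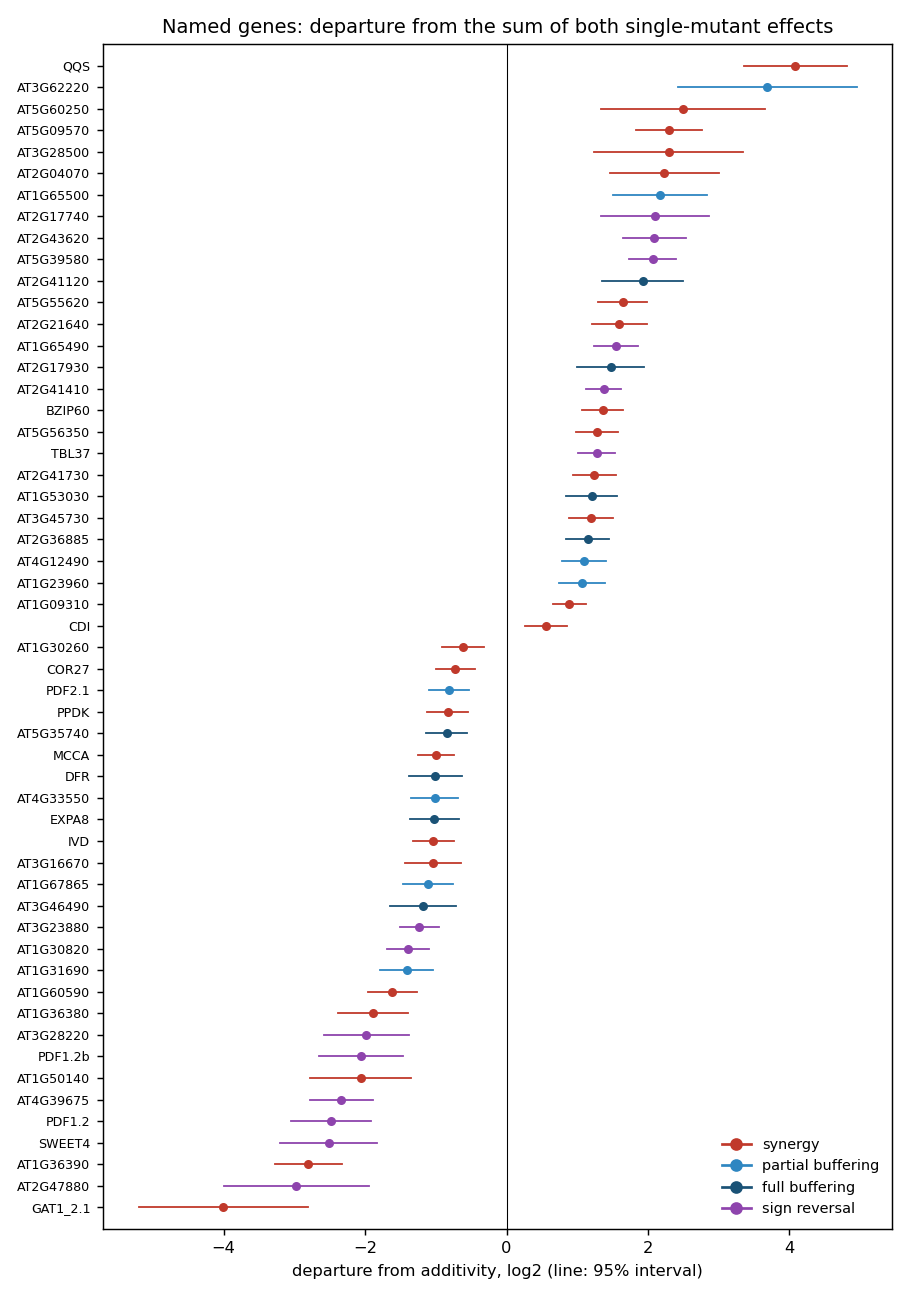
Departure from additivity (horizontal axis, log2) with its 95% interval for 54 named genes, 27 positive and 27 negative, ordered by departure and coloured by class. The genes were picked among called probe sets, so their intervals leave out 0 by selection. QQS (4.09) and GAT1_2.1 (-4.01) mark the ends.

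In the sign reversal class, PDF1.2, a plant defensin gene used as a marker of jasmonate and ethylene defence, read 81.3, 70.8 and 97.4 in sdg8hub2, against 199, 171 and 118 in sdg8, 658, 668 and 670 in hub2, with 264, 196 and 234 in wild type. It was highest in hub2 and lowest in the double mutant, with no overlap between either and the other groups. The hub2 mutation raised it by 1.53 log2 units in the wild-type background, and its effect in the sdg8 background was -0.95. The departure was -2.48 (SE 0.27, limma adjusted p = 3.62e-06), 5.59 times below the expected 461 units.

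PDF1.2b followed it, with a departure of -2.06 (SE 0.29) on a probe set that may also cross-hybridise, so the values of both genes are not independent. Of 3 measured members of the jasmonate and ethylene list, these 2 were called negative and none positive, beside 3.41% of all probe sets called negative. The thionin gene THI2.1 read low in all groups with a departure of 0.07 (SE 1.13). AT3G28220 turned in the same way, with a hub2 effect of 0.97 in the wild-type background and of -1.01 in the sdg8 background, and a departure of -1.98 (SE 0.29). WRKY47, a transcription factor gene of the WRKY family, went the other way: the sdg8 effect was -0.74 in the wild-type background and 0.79 in the hub2 background, a departure of 1.53 (SE 0.20, limma adjusted p = 4.37e-05).

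Among cold and abscisic acid response genes, COR15B, which encodes a chloroplast protein that protects membranes in freezing, read 756, 848 and 906 in sdg8hub2, against 2180, 1524 and 1543 in sdg8, 2303, 2749 and 2194 in hub2, with 1556, 1624 and 1734 in wild type. It was high in hub2 and below every other array in the double mutant, and it departed by -1.60 (SE 0.17, limma adjusted p = 3.62e-06). LTI30, a dehydrin gene, departed by -1.18 (SE 0.15, limma adjusted p = 2.43e-05): sdg8 raised it by 0.70 in the wild-type background and had an effect of -0.47 in the hub2 background. Of the 4 measured list members these 2 were called negative and none positive, beside 3.41% of all probe sets called negative. COR47 (-0.36) and COR15A (-0.02) were not called. The interval of COR15A, a close relative of COR15B, ran from -0.44 to 0.39.

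SWEET4, a sugar transporter gene, read 45.8, 82.9 and 76.4 in sdg8hub2, against 326, 275 and 258 in sdg8, 155, 161 and 158 in hub2, with 145, 92.8 and 125 in wild type. It was highest in sdg8 and lowest in the double mutant, and it departed by -2.51 (SE 0.33, limma adjusted p = 4.37e-05). With QQS and GAT1_2.1 it makes up the 3 measured genes of the carbon and nitrogen status list, of which 1 was called positive and 2 negative. Over all probe sets tested, 3.05% were called positive and 3.41% negative. AT2G47880, which encodes a glutaredoxin, read 77.0, 20.5 and 71.8 in sdg8hub2, against 302, 272 and 279 in sdg8, 128, 98.6 and 146 in hub2, with 100, 97.5 and 79.3 in wild type, and departed by -2.97 (SE 0.49, limma adjusted p = 0.000565). On the log2(intensity + 64) scale the departure of AT2G47880 was -1.83. AT4G39675 departed by -2.33 (SE 0.21), with 344, 424 and 266 in sdg8hub2 against an expectation of 1707.

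Among positive reversals, AT5G39580, a class III peroxidase gene, read 455, 447 and 488 in sdg8hub2, against 292, 301 and 246 in sdg8, 629, 685 and 755 in hub2, with 1658, 1725 and 1820 in wild type. The 4 groups did not overlap. The hub2 effect was -1.33 log2 units in the wild-type background and 0.73 in the sdg8 background, and the departure was 2.07 (SE 0.16, limma adjusted p = 6.25e-08). AT2G43620, of the chitinase family, had the same order of groups and departed by 2.09 (SE 0.21, limma adjusted p = 1.97e-06). AT2G17740 departed by 2.10 (SE 0.37).

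AT2G41410, which encodes a calmodulin-like protein, was lowered by each single mutation and was at the wild-type level in the double mutant. It read 4934, 4630 and 4539 in sdg8hub2, against 2513, 2855 and 2522 in sdg8, 3011, 2891 and 3271 in hub2, with 4246, 4682 and 4341 in wild type, a departure of 1.37 (SE 0.12, limma adjusted p = 1.74e-07). TBL37, of a family linked to cell wall acetylation, departed by 1.27 (SE 0.12) in the same form. AT1G65490, which lies beside AT1G65500, read 2515, 2990 and 2546 in sdg8hub2, against 605, 705 and 526 in sdg8, 1970, 2111 and 2041 in hub2, with 1295, 1340 and 1432 in wild type, and departed by 1.55 (SE 0.15). It was lowest in sdg8 and highest in the double mutant. AT1G30820, which encodes a CTP synthase, departed by -1.39 (SE 0.14) and AT3G23880, an F-box gene, by -1.23 (SE 0.13).

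In the unresolved class the median single-mutant and double-mutant changes were small and opposite in sign. The median departures were 0.67 for its positive and -0.75 for its negative probe sets. HPR, which encodes the peroxisomal hydroxypyruvate reductase of photorespiration, read 12034, 12502 and 12579 in sdg8hub2, against 15107, 15588 and 16580 in sdg8, 15160, 16215 and 14314 in hub2, with 13229, 13316 and 14650 in wild type. The double mutant was below all other arrays by a small margin, no mutant had a call against wild type, and the departure was -0.50 (SE 0.10, limma adjusted p = 0.00520). AKINBETA1, a regulatory subunit gene of the SnRK1 kinase, departed by -0.63 (SE 0.14), Fes1B by -1.02 (SE 0.21) and AT1G74940 by 0.89 (SE 0.18).

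Of the remaining gene lists, most had few calls, beside 3.05% of all probe sets called positive and 3.41% called negative. Counts of 0 or 1 in lists this small are therefore not read as a trait of the list. Of 5 measured flavonoid and anthocyanin genes, DFR was called negative (2 genes were without sdg8hub2 replicate 3) and none positive, and all 5 had negative departures with a median of -0.87, against 0.01 over all genes. UF3GT, a glycosyltransferase gene of the pathway, had a departure of -0.98 that was not called (limma adjusted p = 0.0854). None of 3 measured iron deficiency genes was called, with BHLH101 at -0.72 (SE 0.23, limma adjusted p = 0.0662). No member was called among 9 RALF peptide genes, and 1 positive call was made among 8 xyloglucan endotransglucosylase genes, 6 WRKY genes and 12 RNA polymerase subunit genes each. The call among the polymerase genes, NRPE7, was lost in 12 of 22 alternatives, among them the omission of any replicate of wild type or of sdg8hub2, of sdg8 replicate 2, and of hub2 replicate 1 or 2. The xyloglucan endotransglucosylase count was 2 without sdg8 replicate 2 or hub2 replicate 2, and 0 without the variance trend. Of 13 glutathione transferase genes, GSTU16 was called positive (0.62) and GSTU25 negative (-0.63). The GSTU16 call was lost in 11 of 22 alternatives, among them the omission of any wild type replicate, of sdg8 replicate 2 or 3, of hub2 replicate 1 or 3, and of sdg8hub2 replicate 2 or 3. The GSTU25 call was lost in 4, among them the omission of wild type replicate 1 or sdg8hub2 replicate 3.

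Other families had 2 or 3 calls, beside 3.05% of all probe sets called positive and 3.41% called negative. Of 41 UDP-glycosyltransferase genes 3 were called positive and none negative (UGT88A1 0.86, UGT72E1 0.72, UGT74B1 0.93), with a median of -0.02 over the family. Of 17 cytochrome P450 genes 3 were called positive and none negative (CYP71B5 1.34, CYP71B23 1.30, CYP71B34 0.82), with a median of 0.51. All but CYP84A4, CYP78A9 and CYP51G2 are of the CYP71B subfamily, so these values do not describe P450 genes at large. Of 11 autophagy genes ATG8B (0.97) and ATG8D (0.60), which encode ubiquitin-like proteins of the autophagosome, were called positive, and of 16 expansin genes EXPA8 (-1.02), EXPA15 (-0.78) and EXPB3 (-0.77) were called negative. The P450 count was 0 without wild type replicate 2, and 1 without wild type replicate 3, sdg8 replicate 1, hub2 replicate 1, hub2 replicate 3, sdg8hub2 replicate 2 or sdg8hub2 replicate 3. The autophagy count was 1 without wild type replicate 2 or 3, sdg8 replicate 2 or 3, hub2 replicate 3, or sdg8hub2 replicate 2 or 3. Without the variance trend, the counts were 0 for the glycosyltransferases, 0 for the P450 genes, 1 for autophagy and 1 for the expansins, and the EXPA15 call was lost in 9 of 22 alternatives.

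Genes encoded in the plastid genome leaned to negative departures. Of 67 measured, 9 were called negative and none positive, beside 3.41% of all probe sets called negative, 55 had a negative departure, and the median was -0.29, against 0.01 over all genes. The called genes were psaB and psaI of photosystem I, psbC and psbN named for photosystem II, petA of the cytochrome b6f complex, atpA of the ATP synthase, rps19 of the ribosome, ycf4 and rpoC2. The photosystem I core gene psaB read 9209, 7584 and 9063 in sdg8hub2, against 12404, 14671 and 12008 in sdg8, 11396, 11262 and 9656 in hub2, with 10011, 10403 and 10946 in wild type. The sdg8 arrays were highest and the double-mutant arrays lowest, with a departure of -0.64 (SE 0.13, limma adjusted p = 0.00470). The number called was 3 without wild type replicate 1 or sdg8 replicate 2, 4 without wild type replicate 3 or sdg8hub2 replicate 3, 5 without sdg8hub2 replicate 1, hub2 replicate 1 or hub2 replicate 2, 14 without hub2 replicate 3, and 1 without the variance trend. The leaf marker RCA departed in the same direction (-0.40, SE 0.11, limma adjusted p = 0.0377), a call that was lost in 15 of 22 alternatives. The part of leaf tissue in these values was not tested.

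**Figure D5:**
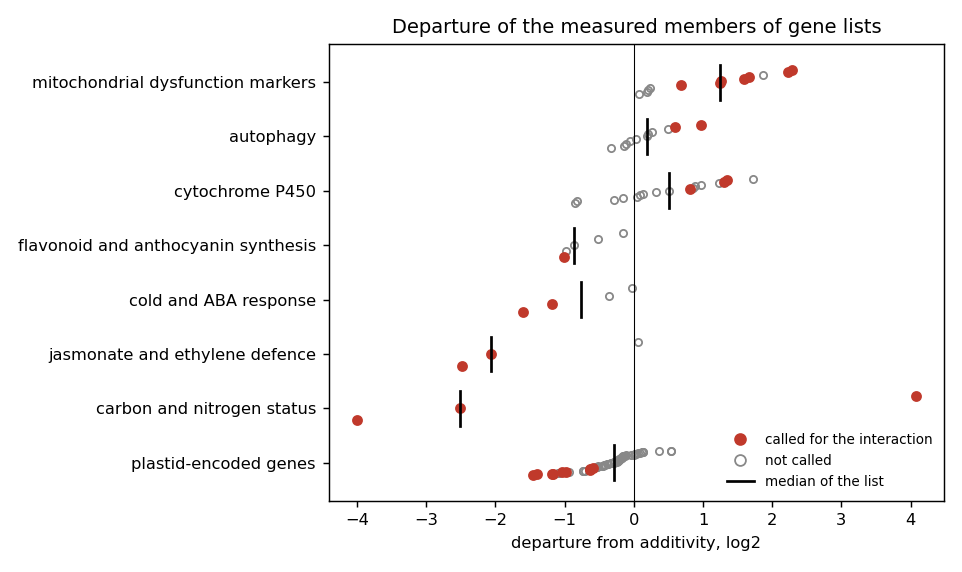
Departure from additivity (horizontal axis, log2) of each measured member of 8 gene lists, with called members as filled points, others as open circles and a bar at the list median. All 12 mitochondrial dysfunction markers lie right of 0, and the plastid-encoded genes lie mostly left of it.

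Neighbouring genes were compared by their order along the chromosomes. Of 3861 pairs of adjacent genes that were both measured under a name, both members were called in 17, in the same direction in 12 and in opposite directions in 5. Of the 6189 genes in such pairs, 332 were called. The pairs in the same direction included AT1G36380 with AT1G36390, AT1G65490 with AT1G65500, AT4G39675 with AT4G39680 (-2.33 and -0.75), AT4G33550 with AT4G33540 (-1.02 and -0.53) and BIK1, a receptor-like kinase gene of immunity, with AT2G39650 (1.16 and 1.36).

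Whether effects add depends on the scale, so the contrast was also taken on untransformed intensity. There 1158 probe sets were called (6.36%). Of the 1175 called on the log2 scale, 1174 had the same sign and 939 were called with the same sign on both. For AT5G39580 the linear expectation was below 0, at -765 intensity units, and for AT2G43620 it was -548, levels that a transcript cannot take. On the log2(intensity + 64) scale, which damps low signals, 1309 probe sets were called, 1164 of them among the 1175. Of the 1175, 16 had a group mean below 18.6 units, the level of the intensity filter. That level is not a measured background, so signals above it may also be undetected.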

How the data were processed

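Expression was measured in whole seedlings on 12 arrays, 3 per genotype. The authors deposited linear intensities, made per the submitters' processing notes with MAS5 and affy (versions not given in the sources used here); the trimmed mean (2% at each end) is 500.1 on every array. Detection calls were not used here, and the labels name more than 1 labelling procedure.

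From the deposited intensities, log2 was taken after values under the 1st percentile (1.18) had been set to it. Control probe sets (64 of 22810) were left out, and so were probe sets with a mean log2 at or under the 20th percentile (18.6 intensity units). A mean per group was fitted in limma 3.58.1 (R 4.3.3) with an intensity trend in the variance, and two-sided p-values were adjusted by Benjamini-Hochberg over 18196 probe sets and called under 0.05. The fit was tested on simulated data. A group mean below 18.6 is called near the background, a level set by the filter and not by a measured background. Arrays have no counting depth, so their number limits the precision.

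Classes were assigned in order: sign reversal (the effect of a mutation called in both backgrounds with opposite signs), synergy (sdg8hub2 called against wild type, departure of the same sign), partial buffering (called, departure of opposite sign), full buffering (not called, a single mutant called, departure opposing it) and unresolved. Named genes were, among called probe sets with 1 symbol and a highest group mean above the median, the 10 highest and 10 lowest departures and up to 4 per class and direction with the smallest p, plus up to 4 called members per list. Each gene counts once in a list, by its brightest probe set. Genes or values named outside these rules (further members of lists, other probe sets, neighbours) were chosen after their values were seen. Members and lists were chosen with earlier results of these data known. Probe sets were named from the platform annotation updated through a RefSeq table of TAIR10.1: 13513 have 1 symbol, 503 several and 8794 none, and 13436 matched. Lists of salicylate, clock, flower, seed storage and mitochondrion-encoded genes had no measured member, and the flowering list (1 gene, AGL24), the NAC list (1 gene) and the heat shock list (1 gene) had none called. Promoter motifs were not analysed here. Replicate numbers do not pair the arrays: deviations from group means of same-numbered arrays correlated at -0.13 to 0.04 over 18 pairs. The alternatives were a replicate block, other scales, filters, normalizations and variance models, an actin covariate and each array left out.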

Additional observations from a re-analysis of the deposited data

Results flagged for a closer look

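The effect of hub2 differed between the sdg8 and the wild-type background, by the test of the difference itself, for 1175 probe sets. Among the genes chosen by the naming rule, the effect of at least 1 mutation was called in both backgrounds with opposite signs for 18. Negative departures among them were AT2G47880 at -2.97, SWEET4 at -2.51, PDF1.2 at -2.48, AT4G39675 at -2.33, PDF1.2b at -2.06, AT3G28220 at -1.98, COR15B at -1.60, AT1G30820 at -1.39, AT3G23880 at -1.23, LTI30 at -1.18 and psaB at -0.64 (log2). Positive departures were AT2G17740 at 2.10, AT2G43620 at 2.09, AT5G39580 at 2.07, AT1G65490 at 1.55, WRKY47 at 1.53, AT2G41410 at 1.37 and TBL37 at 1.27. AT1G56190 (-0.59), AT1G06830 (-1.59), AT3G62950 (-1.25) and BIK1 (1.16), named outside that rule after their values were seen, are of the same class. The groups hold 3 arrays each, so single arrays were not tested as outliers within a group.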

How the results depend on the processing

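The alternatives were compared for 103 named probe sets, all of them called in the main fit. Genes named above without a call did not enter, nor did some neighbours such as BIK1. None of the 103 departures changed sign in any alternative, which their selection by the call makes likely in advance. Of the 103, 66 were called in all 22 alternatives on a log scale in which they were tested. Among the 37 that lost the call at least once, petA lost it in 17 alternatives, RCA and CYP71B34 in 15 and ycf4 in 14. NRPE7, AT1G11860 and CYP71B23 lost it in 12, GSTU16 in 11, and psbC and GRXC1 in 10. Some, such as HPR, psaB and XTH32, lost it only without the variance trend. That alternative called 530 probe sets (490 of them among the 1175), with 185 synergy, 54 partial buffering, 139 full buffering, 75 sign reversal and 77 unresolved; the cause was not tested. The share of positive calls was 51.3% on untransformed intensity, 52.0% after quantile normalization and 53.8% after median centring. With the replicate number as a block, 1083 probe sets were called, 1044 of them among the 1175, although the pairing check above found no pairing. The actin difference as a covariate left 1071 calls, and leaving out hub2 replicate 2, the array with the highest actin difference, left 1146. Leaving out each array in turn gave 805 to 1146 calls, 243 to 388 synergy, 71 to 135 partial buffering, 218 to 367 full buffering, 90 to 147 sign reversal, 132 to 190 unresolved and 44.9% to 50.2% positive. Other settings gave 901 (median centring) to 1309 calls (log2 of intensity + 64).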

Other observations

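Some gene groups showed departures that the report's lists do not cover. They were put together after the values had been seen, so their counts are descriptions only. Over all probe sets tested, 3.05% were called positive and 3.41% negative. Of 15 genes of the photosynthetic carbon reduction cycle 4 were measured, and all 4 were called negative: PRK, which encodes phosphoribulokinase, at -0.60 (SE 0.11), AT1G56190, a phosphoglycerate kinase gene, at -0.59 (SE 0.13), SBPASE at -0.42 (SE 0.11) and RCA at -0.40 (SE 0.11). Of 3 measured photorespiration genes, HPR (-0.50) and AT1G11860 (-0.43), which encodes the T protein of glycine decarboxylase, were called negative, and AT1G80380 (-0.19), the glycerate kinase gene, was not called. Of 22 alternatives, the call was lost in 15 for RCA, in 12 for AT1G11860 and in 8 for SBPASE. For RCA these included the omission of any replicate of hub2 or of sdg8hub2.

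Besides IVD and MCCA, 2 more of the 5 measured genes for breakdown of branched-chain amino acids and methionine were called negative. MGL, the methionine gamma-lyase gene, departed by -0.96 (SE 0.25) and AT5G09300, a branched-chain keto acid dehydrogenase gene, by -1.17 (SE 0.28). The MGL call was lost in 7 of 22 alternatives, among them the omission of wild type replicate 1 or 2, sdg8 replicate 1, hub2 replicate 1 or 3, and sdg8hub2 replicate 1. MCCB, the partner subunit of MCCA, had a departure of -0.60 (SE 0.18) that was not called (limma adjusted p = 0.0518).

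Glutaredoxin genes are given by type, with no test between the types, beside 3.05% of all probe sets called positive and 3.41% called negative. Of 16 measured genes of the CC type, a land-plant class, 4 were called negative and none positive: AT2G47880 (-2.97), AT2G30540 (-1.60), AT1G06830 (-1.59) and AT3G62950 (-1.25). The other 12 were not called, and of the 16 departures 11 were negative and 5 positive, with a median of -0.56. Of the 4 CPYC-type genes, the classical dithiol class, GRXC1 (0.86, SE 0.24) and GRXC2 (0.53, SE 0.13) were called positive, and all 4 had positive departures. The call was lost for GRXC1 in 10 and for GRXC2 in 5 of 22 alternatives, and both were lost without hub2 replicate 1, without sdg8hub2 replicate 2 and without the variance trend. GRXC1 was lowered in hub2 (-1.23) and GRXC2 in sdg8 (-0.98), and the double mutant was at -0.34 and -0.33.

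Of the called probe sets, 619 carry no symbol or several, and 165 of these departed by at least 1 log2 unit. The departures called over all probe sets reached 4.22 and -5.88, beyond those of the named genes.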
